A study of Caenorhabditis elegans with 3 samples.

Results

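The regions described here are the LET-418 binding sites on chromosome IV of Caenorhabditis elegans that lie outside the chromosome's piRNA domains. LET-418 was mapped by ChIP-seq, the sequencing of DNA recovered with an antibody to a chromatin protein, in whole wild-type (N2) worms at the L3 stage, a mixed population of males and hermaphrodites at 20 °C. The data comprise 2 ChIP replicates made with a polyclonal rabbit antibody that was affinity purified. A sample of input DNA is also described, and it was not analysed here. The labels leave unsaid whether the replicates came from separate worm cultures, so the spread between them may be technical. Of the 9187 peaks in the authors' combined list, 1341 lay on chromosome IV, and 1018 of those (75.9%) had a midpoint outside the piRNA domains, which is 11.1% of the whole list. Positions are on WormBase WS220. The sites fell into 3 zones. The left end, below 4.5 Mb, held 497 peaks, the right end, above 17.2 Mb, held 13, and the centre, from 7 to 13.5 Mb, held 508. The other 323 peaks of chromosome IV lay in the domains from 4.5 to 7 Mb and from 13.5 to 17.2 Mb.

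LET-418 is a worm homologue of Mi-2, an ATPase that moves nucleosomes. It serves as the catalytic subunit of the NuRD complex and of the MEC complex. In larvae it is known for its part in vulval development and in keeping germline genes silent in somatic cells. The piRNA domains carry most of the genes for 21U-RNAs, the piRNAs of this worm, which guide the Argonaute PRG-1 in the germline. The chromosomes of this worm have no single centromere, and their outer parts, the arms, are known to recombine more often and to be richer in repeats than their centres.

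The peaks described were chosen by position alone, without the authors' peak score. Among sites named singly, the score picked out only 4 centre peaks, at its ceiling. The files give no read counts, so depth is unknown, and the replicate 1 list was longer than the replicate 2 list (16140 against 9817 peaks, a ratio of 1.64). Zones are therefore compared within a list. Intervals are at 95%, exact Poisson for densities and Wilson for shares. They cover counting error only, and neighbouring peaks are not independent. Peaks of a list are not replicates of a condition, and with 1 group of 2 replicates no test between zones was made. A difference is set against the values of the 2 replicate lists instead. No genome or annotation of this build was used here, so no gene is named and no sequence is printed.

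The left end was the densest zone and the right end the sparsest in each of the 3 lists. In the combined list the left end held 110 peaks per Mb (interval 101 to 121), the right end 48.0 (25.6 to 82.1) and the centre 78.2 (71.5 to 85.3). Replicate 1 had 208 peaks per Mb in the left end, 88.6 in the right end and 130 in the centre. Replicate 2 had 113, 62.8 and 90.9 peaks per Mb in the same 3 zones. The left end thus exceeded the centre by a factor of 1.41 in the combined list, 1.59 in replicate 1 and 1.24 in replicate 2. The 2 replicates put the left end above the centre by different amounts but in the same direction. The right end, which spans only 0.271 Mb up to the last peak of any list, stood at 0.614 of the centre's density in the combined list, 0.679 in replicate 1 and 0.690 in replicate 2. With 13, 24 and 17 peaks in those lists, its interval overlapped that of the centre in each list.

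**Figure D1:**
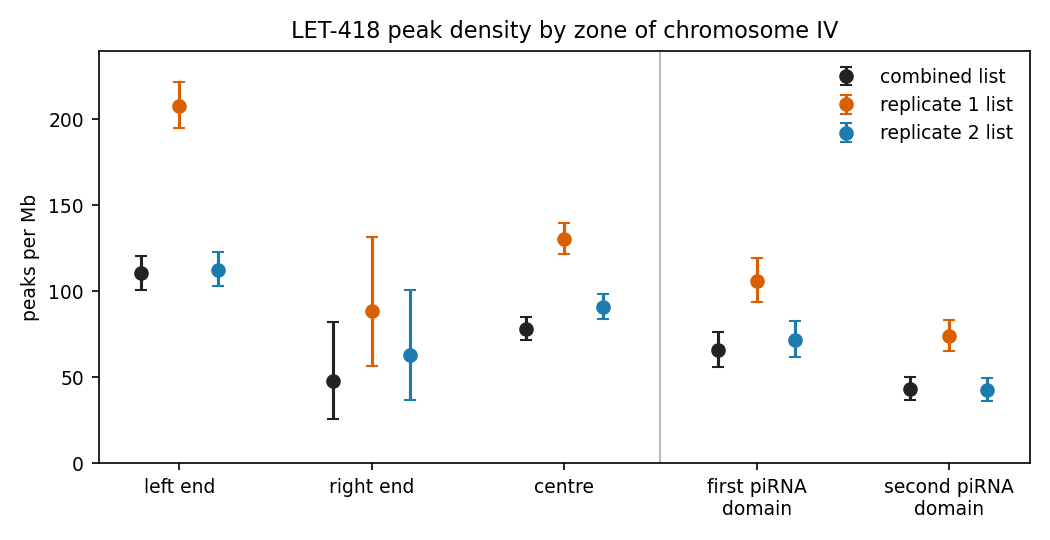
Peaks per Mb (vertical axis) in the 3 zones outside the piRNA domains and, right of the line, in both piRNA domains, for the combined list and each replicate list; points are densities and bars are exact Poisson intervals at 95%. The left end is the highest zone in each list, at 110 peaks per Mb in the combined list, and the second piRNA domain holds 43.0.

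Outside the piRNA domains the chromosome carried 90.3 combined peaks per Mb (84.9 to 96.0), against 52.1 (46.6 to 58.1) inside them, a ratio of 1.73. The same ratio was 1.85 in replicate 1 (160 outside against 86.8 inside) and 1.83 in replicate 2 (98.9 against 54.2). The first domain held 65.6 combined peaks per Mb and the second 43.0. On the other 5 chromosomes together the combined list held 94.9 peaks per Mb, which is near the pooled value outside the domains. That pooled value averages unlike zones, since the left end lay above 94.9 and the centre and the right end below it. The right end, with 13 combined peaks, also lay below the domains together in the combined list (48.0 against 52.1). In the replicate lists that order was reversed, at 88.6 against 86.8 in replicate 1 and 62.8 against 54.2 in replicate 2. By bases in place of peak counts, peaks covered 2.73% of the zones outside the domains and 1.61% of the domains. They covered 3.45% of the left end, 1.14% of the right end and 2.30% of the centre.

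In windows of 500 kb, combined peaks were spread unevenly along the left end and more evenly along the centre. The 9 windows of the left end held 25 to 88 combined peaks each, with a mean of 55.2 ± 22.4 (SD over windows). Its sparsest window was the first, from 1 to 500000, with 25 combined peaks, 55 in replicate 1 and 29 in replicate 2. Its densest window was the last, from 4000001 to 4500000, next to the first piRNA domain, with 88 combined peaks, 130 in replicate 1 and 88 in replicate 2. Counts went up from the chromosome end to 77 and 78 in the windows between 2000001 and 3000000, dropped to 33 between 3500001 and 4000000, and were at their highest in the next window. The 13 windows of the centre held 33 to 50 combined peaks each, with a mean of 39.1 ± 4.96. The sparsest of them ran from 7500001 to 8000000 and held 33 combined peaks, 51 in replicate 1 and 38 in replicate 2. The densest ran from 10500001 to 11000000 and held 50, 76 and 54 peaks in the same lists.

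The variance of the window counts divided by their mean was 9.10 in the left end and 0.629 in the centre for the combined list. It was 6.72 and 3.04 in replicate 1 and 8.33 and 0.992 in replicate 2, so the left end was the more uneven zone in each list by this measure. In replicate 1 the centre was uneven too, with 43 to 98 peaks per window against 55 to 130 in the left end. Replicate 1 had 98 peaks in the window from 11500001 to 12000000, where replicate 2 had 45 and the combined list 41. Across windows the counts of the replicates had a Spearman's rho of 0.89 over the 9 windows of the left end and 0.40 over the 13 of the centre, a description of windows that share both libraries. At 100 kb, counts in the combined list ran from 0 to 37 per window with a median of 10 in the left end, and from 0 to 23 with a median of 8 in the centre, with a variance over mean of 6.75 and 2.96. Of the 45 windows of 100 kb in the left end 2 held no combined peak, and of the 65 in the centre 3 held none. Replicate 1 had at least 1 peak in each 100 kb window of both zones, and replicate 2 had none in 1 of the left end and 2 of the centre.

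**Figure D2:**
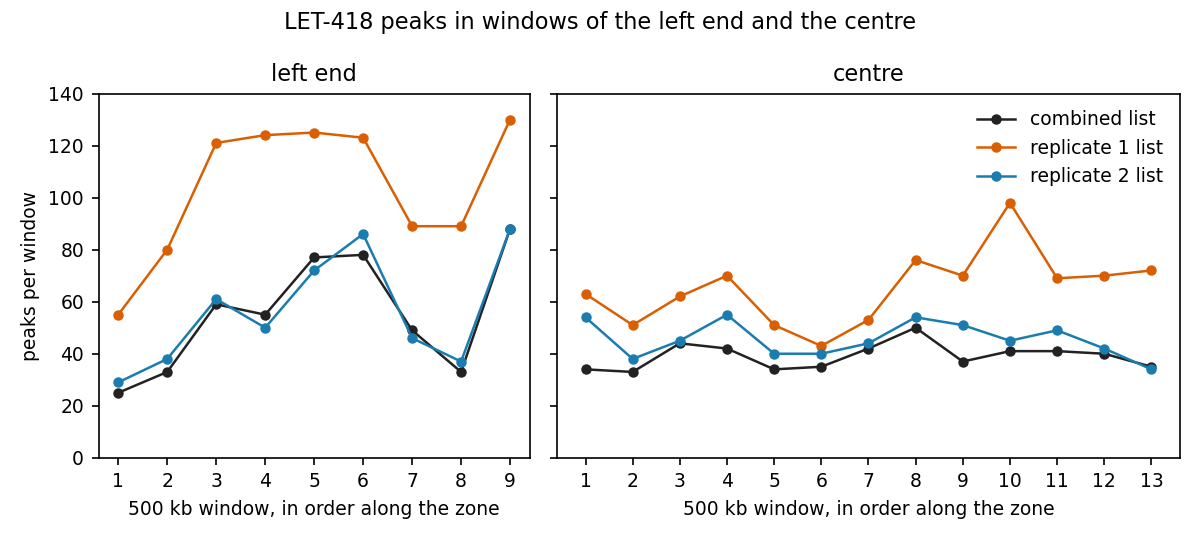
Number of peaks (vertical axis) in each 500 kb window of the left end and the centre, in order along the chromosome, for the combined list and each replicate list. In the combined list the left end runs from 25 to 88 peaks per window and the centre from 33 to 50.

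Widths in the left end and the centre were close. The median combined peak was 237 bp wide in the left end (quartiles 176 and 339 bp), 194 bp in the right end (173 and 299 bp) and 229.5 bp in the centre (174 and 327 bp). In replicate 1 the medians were 225, 226 and 217.5 bp and in replicate 2 they were 248, 238 and 246 bp in the same zones, so within each list the left end exceeded the centre by less than the replicates differed from each other. Over all 1018 peaks the median was 235 bp, against 231 bp in the piRNA domains and 228 bp on the other 5 chromosomes. The narrowest peak was 146 bp in the left end and in the centre, the same minimum as in the piRNA domains. Peaks wider than 1 kb numbered 12 in the left end, 0 of 13 in the right end and 9 in the centre, 2.06% of the 1018. That is near the 2.05% of the whole combined list and the 2.08% on the other 5 chromosomes.

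The widest of these peaks was in the left end at IV:2995045-2997503, 2459 bp in the combined list. Replicate 1 called 1 peak of 4716 bp there, from 2995000 to 2999715, and replicate 2 called 2 peaks, the wider of them 2082 bp. The site was thus 1 longer peak in replicate 1 and broken in replicate 2. Next in the left end came IV:2705469-2707174 (1706 bp), with 1 peak in each replicate, of 1712 and 2021 bp. After it came IV:1413115-1414418 (1304 bp), where replicate 1 called 2327 bp and replicate 2 called 1284 bp. In the right end no peak exceeded 465 bp, the width at IV:17278243-17278707. The widest of the centre was IV:8431643-8433064 (1422 bp), which replicate 1 split into 2 peaks and replicate 2 covered with 1 peak of 1863 bp. It was followed by IV:9066190-9067603 (1414 bp), called at 1490 bp in replicate 1 and 1430 bp in replicate 2. The other wide peak named in the centre was IV:11523484-11524752 (1269 bp), called at 1571 and 2473 bp. Each of the 7 sites had a peak in both replicates, but the replicates often placed the edges differently.

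Peaks stood close together with long bare stretches between them. The median distance between neighbouring midpoints in the combined list was 1550 bp in the left end (quartiles 626 and 7824 bp), 3202 bp in the right end (480 and 22078 bp) and 2146.5 bp in the centre (614 and 14746 bp). Replicate 1 had medians of 1247, 1324.5 and 1564 bp and replicate 2 had 1388, 1747 and 1675 bp in the same zones. Left end distances were shorter than those of the centre in each list, while the order of the right end and the centre was not the same in all 3 lists. The lower quartiles of the left end and the centre, 626 and 614 bp, were nearly equal, and the upper quartiles were not. Of the 496 distances in the left end, 40.7% were under 1 kb, against 37.7% of the 507 in the centre. Distances of 10 kb to under 50 kb made up 19.0% in the left end and 25.2% in the centre, and those of 50 kb or more 3.23% and 6.11%. The contrast at 50 kb or more was small in replicate 2, where such distances made up 4.15% in the left end and 4.58% in the centre. In replicate 1 they made up 1.18% and 2.36%, and the share under 1 kb differed as well, at 43.7% and 37.8%. The class of 10 kb to under 50 kb kept its order, at 18.6% and 23.9% in replicate 2 and 12.1% and 20.2% in replicate 1. Over all 1018 peaks the median was 1760 bp, against 2282 bp in the piRNA domains and 1537.5 bp on the other 5 chromosomes. With a score minimum at the whole list's median, the distance was 5832 bp, since fewer peaks were left.

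**Figure D3:**
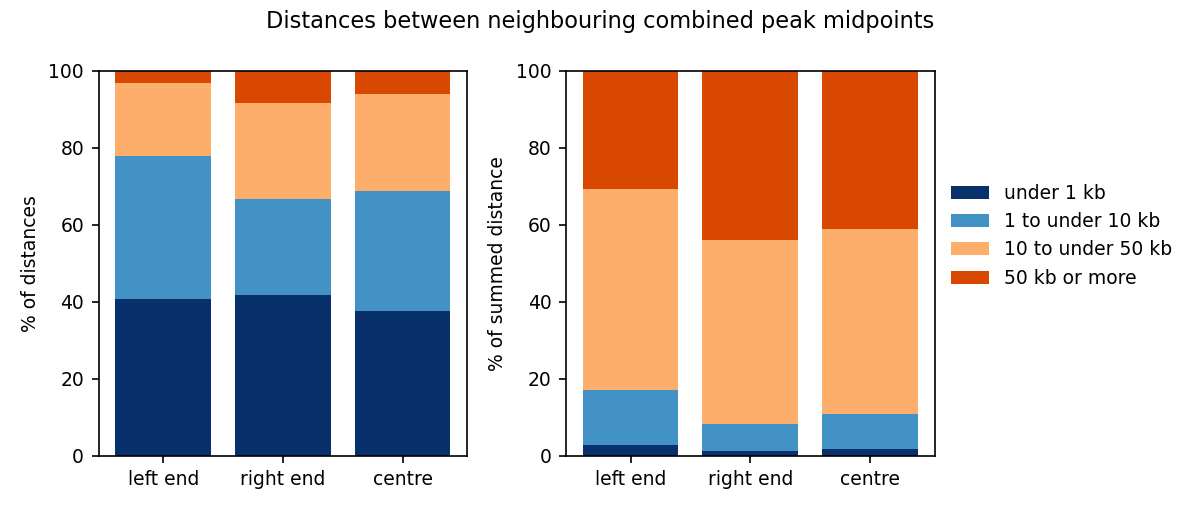
Distances between neighbouring combined peak midpoints in 4 classes for the left end, the right end and the centre, as a percentage of the number of distances (left panel) and of their summed length (right panel). Distances of 50 kb or more are 3.23% of those in the left end and 6.11% in the centre, but 30.7% and 41.2% of the summed length; in replicate 2, not plotted, they are 4.15% and 4.58% of the distances and 34.6% and 35.4% of the summed length.

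Stretches of at least 50 kb without a combined peak were counted between neighbouring peaks of a zone. The stretch before the first combined peak, which begins at 51144, was thus left out. The counted stretches numbered 16 in the left end, 1 in the right end and 31 in the centre. They took up 30.1%, 34.4% and 40.7% of these zones. Most of them held peaks in replicate 1, while replicate 2 was empty in many. Replicate 1 had 61 peaks in the 16 stretches of the left end and 104 in the 31 of the centre, and left 1 and 2 of them empty. Replicate 2 had 14 and 31 peaks there, and left 8 and 12 of them empty. The longest stretch in the left end was 179 kb, IV:393636-572581, with 9 replicate 1 peaks and 2 replicate 2 peaks. The next was 132 kb, IV:3875778-4007693, with 1 and 0 peaks, and the third was 120 kb, IV:2479809-2599355, with 4 and 2 peaks. In the right end the longest was 93.1 kb, IV:17333847-17426978, with 1 peak in each replicate. The centre held the longest of all, 184 kb at IV:10513076-10697193, with 7 peaks in replicate 1 and 0 in replicate 2. It was followed by 159 kb at IV:12854611-13013782 with 6 and 1, and by 158 kb at IV:13082508-13240126 with 6 and 0. Replicate 2 was thus empty in 3 of these 7 stretches and replicate 1 in 0 of them.

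Peaks less than 1 kb apart were joined into regions. Of the 1018 peaks, 657 (64.5%, interval 61.5 to 67.4%) fell into 193 regions and 361 stood alone. The share was 67.8% (63.6 to 71.8%) in the left end, 53.8% (29.1 to 76.8%) in the right end and 61.6% (57.3 to 65.7%) in the centre. The intervals of the left end and the centre overlap. Replicate 1 had 71.4% in the left end and 66.9% in the centre, and replicate 2 had 69.2% and 67.5%, so the left end was the higher of these in each list, by a small margin in replicate 2. In the piRNA domains the combined share was 57.3% (51.8 to 62.6%) and on the other 5 chromosomes it was 66.8%. Most regions were small, with 97 pairs and 41 triples among the 193. The left end and the centre held 20 regions of 5 or more peaks each, with 144 and 136 peaks (29.0% and 26.8% of their peaks), and the right end held none. The share in such regions was 25.7% over the whole combined list, 25.8% on the other 5 chromosomes and 18.6% in the piRNA domains. Peaks standing alone in the centre lay farther from their neighbours, with a median distance to the nearest peak of 4.17 kb in the left end and 6.02 kb in the centre.

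Joined regions of the combined list were set against those of the replicate lists. A region of several peaks overlapped one in both replicate lists for 79 of 99 regions in the left end (79.8%, 70.8 to 86.5%), for 2 of 2 in the right end and for 83 of 92 in the centre (90.2%, 82.4 to 94.8%). All 40 regions of 5 or more peaks overlapped a joined region of 2 or more peaks in both replicates. The combined list shares its libraries with the replicate lists, and most of its peaks overlap both. A region of many peaks could thus hardly lack a partner, and these counts are no separate support for the regions. The same share over the whole combined list was not computed. The regions took up 4.24% of the left end, 1.04% of the right end and 2.60% of the centre, with a median span of 1273, 1409 and 1337.5 bp.

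In the left end the region with most peaks was IV:2710787-2719818, with 11 combined peaks, 9 in replicate 1 and 9 in replicate 2. Its peaks were 175 to 1251 bp wide and covered 66.9% of the 9032 bp. Gaps between them ran from 71 to 933 bp, and 10 of the 11 had a partner in both replicates. The exception was IV:2712829-2713078, which overlapped replicate 1 alone. It was followed by IV:4209444-4216326 and IV:4468340-4474253 with 10 peaks each and by IV:2217191-2222548 with 9. The region at 4468340 lies in the last 100 kb before the first piRNA domain. In the right end the region with most peaks was IV:17267729-17269128, with 4 peaks in 1400 bp, and the next was IV:17277694-17279111 with 3. All 7 of their peaks had a partner in both replicates.

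The centre had 2 regions of 11 peaks, at IV:10340119-10346431 and IV:10500026-10506978. The first held 8 peaks in replicate 1 and 9 in replicate 2, and its peaks covered 47.8% of its 6313 bp. In it, IV:10340651-10340808 overlapped replicate 1 alone, IV:10342880-10343032 overlapped replicate 2 alone, and the other 9 overlapped both. The second held 10 and 9 replicate peaks. Next came IV:10816477-10822896 with 10 peaks and IV:9667128-9674492 with 9. The 4 leading regions of the left end were covered by peaks over 61.4 to 72.7% of their span, and those of the centre over 35.0 to 60.4%. These are ranked by number of peaks, and joined peaks in one list were often a single wider peak in another.

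**Figure D4:**
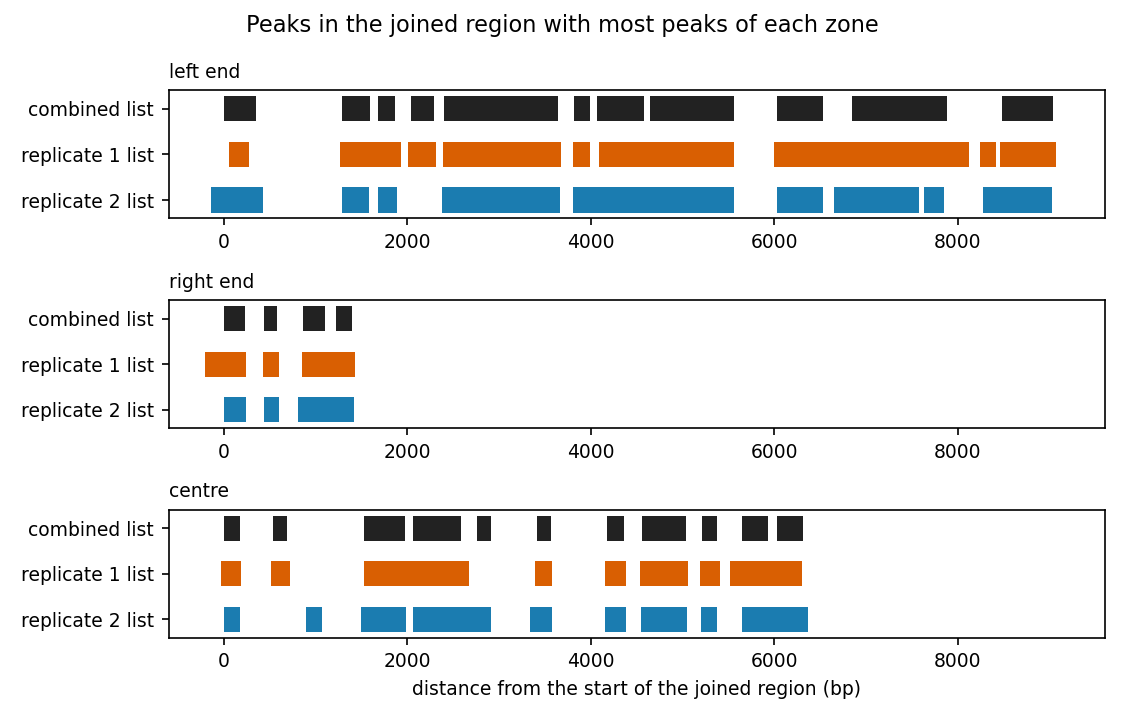
Peaks of the combined list and of each replicate list in the joined region with most peaks of the left end, the right end and the centre; the horizontal axis is the distance in bp from the start of the region and each bar is a peak. The regions of the left end and the centre hold 11 combined peaks and that of the right end 4.

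Presence in the replicates was counted for each combined peak. Of the 1018 peaks, 920 (90.4%, 88.4 to 92.0%) overlapped a peak of both replicates by at least 1 bp, the same share as the 90.4% over the whole combined list. Replicate 1 alone accounted for 89 (8.74%, against 8.87% over the whole list), replicate 2 alone for 9 (0.884%, against 0.773%), and none lacked a partner in both. By zone the share with both was 86.3% (429 of 497, 83.0 to 89.1%) in the left end, 100% (13 of 13, 77.2 to 100%) in the right end and 94.1% (478 of 508, 91.7 to 95.8%) in the centre. The intervals of the left end and the centre do not overlap at 1 bp, and the background of 90.4% lay between them. They do overlap under the other rules for presence. With midpoints within 500 bp the shares were 88.5% (85.4 to 91.0%) in the left end and 92.7% (90.1 to 94.7%) in the centre, and with a reciprocal overlap of 50% they were 65.0% (60.7 to 69.1%) and 68.1% (63.9 to 72.0%). Replicate 1 alone accounted for 63 peaks of the left end (12.7%, 10.0 to 15.9%) and 26 of the centre (5.12%, 3.52 to 7.39%). The share in both was lowest from 1500001 to 2000000 in the left end, at 80% (44 of 55). In the centre it was lowest in the last window, from 13000001, at 85.7% (30 of 35). The first 6 windows of the centre, up to 10000000, held 95.5 to 100%.

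**Figure D5:**
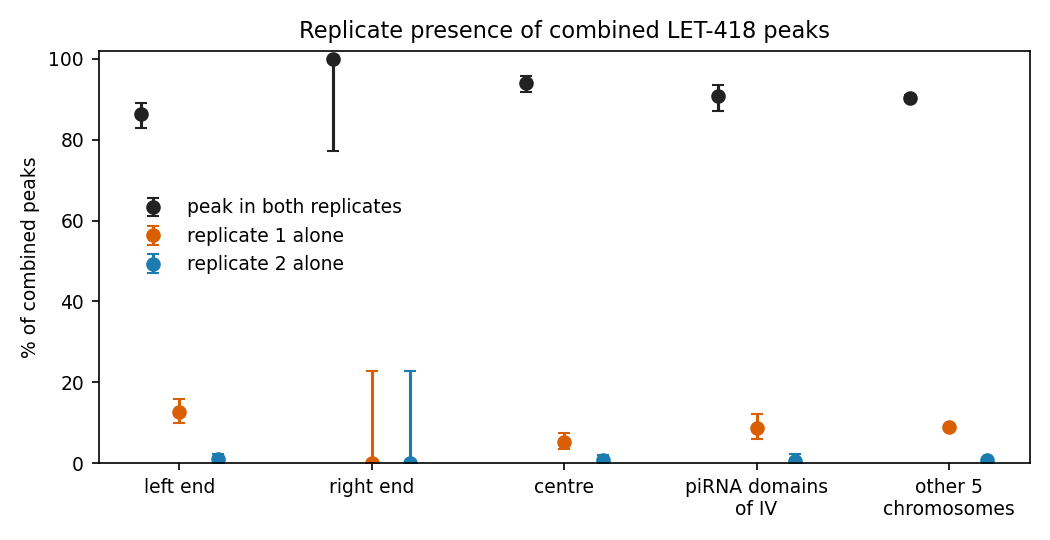
Percentage of combined peaks (vertical axis) that overlap a peak in both replicates, in replicate 1 alone or in replicate 2 alone, for the left end, the right end, the centre, the piRNA domains of IV and the other 5 chromosomes; bars are Wilson intervals at 95%. The share in both is 86.3% in the left end and 94.1% in the centre.

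Peaks seen in 1 replicate were narrow. The median width was 253 bp for left end peaks in both replicates and 163 bp for those in replicate 1 alone, and in the centre it was 240.5 bp and 159.5 bp. This was not particular to these zones, with 241 bp and 165 bp over the whole combined list and 243 bp and 164 bp in the piRNA domains. The 5 left end peaks in replicate 2 alone began at 1069827, 1201518, 1792364, 2705212 and 3384276 and were 150 to 253 bp wide. The 4 of the centre began at 7049098, 10342880, 11813437 and 12334806 and were 153 to 191 bp wide. Of the joined peaks of the centre, the share in both was 96.2% (301 of 313, 93.4 to 97.8%), against 90.8% (177 of 195, 85.9 to 94.1%) of those standing alone. In the left end the shares were 87.2% (294 of 337) for joined peaks and 84.4% (135 of 160) for those alone.

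The replicate lists themselves differed between the zones in the same sense. Replicate 1 had 936 peaks in the left end and replicate 2 had 507, a ratio of 1.85. In the right end they had 24 and 17, a ratio of 1.41, and in the centre 848 and 591, a ratio of 1.43. The ratio over the whole lists was 1.64. Of the replicate 1 peaks, 47.8% (44.6 to 51.0%) in the left end and 60.7% (57.4 to 64.0%) in the centre overlapped a replicate 2 peak. The opposite order held for replicate 2, where 92.5% (89.9 to 94.5%) in the left end and 88.7% (85.9 to 91.0%) in the centre overlapped a replicate 1 peak. These 2 intervals overlap. In the piRNA domains the shares were 56.9% for replicate 1 and 91.4% for replicate 2, and those over the whole replicate lists were not computed. Between the left end and the centre, the higher ratio came with the lower share of combined peaks in both replicates. The 500 kb windows of the left end kept no such order. The highest ratio there, 2.48, came with the lowest share, 80%. The window from 3500001 had 2.41 and 87.9%, and that from 2500001 had 1.43 and 85.9%. The part of the ratio in that share was not tested. In the right end 14 of 24 replicate 1 peaks and 12 of 17 replicate 2 peaks overlapped the other replicate.

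Where peaks matched singly, their positions were close. Of the 1018, 681 (66.9%) met exactly 1 peak in each replicate that met no other combined peak. Among single matches, the median offset between midpoints was 8.5 bp for replicate 1 and 9.5 bp for replicate 2. The replicate 1 peak was a median 1.18 times as wide as the combined peak and the replicate 2 peak 1.08 times. Some combined peaks shared a wider replicate peak with a neighbour. In replicate 1 these were 84 of 497 in the left end and 100 of 508 in the centre. In replicate 2 they were 53 and 86. The shares over the whole combined list, for these counts and for the 681 single matches, were not computed. Spearman's rho between the authors' scores of the replicates at the 681 sites was 0.72 for the 318 in the left end and 0.60 for the 354 in the centre, a description across peaks that share both libraries.

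The authors' score, whose scale is not stated, was higher in the left end. The median combined score was 4.26 in the left end, 3.92 in the right end and 3.635 in the centre, against 3.93 over the whole list. At the ceiling of the score, 9.03, were 29 peaks of the left end (5.84%, 4.09 to 8.25%), 0 of 13 in the right end and 4 of the centre (0.787%, 0.307 to 2.01%), against 2.68% of the whole list. Of the 29, 10 lay between 2500001 and 3000000, the window that also holds the left end's region of 11 peaks. No peak of that region was at the ceiling, and its highest score was 7.97. The 4 of the centre, named after their values were seen, were IV:7845472-7846188, IV:8252938-8253180, IV:9196262-9196646 and IV:13393596-13394155, each with a partner in both replicates. With a score minimum of 3.93, the median of the whole list, the left end exceeded the centre in density by a factor of 1.80. That is a larger ratio than in any of the 3 full lists. It follows by construction from the scores, with 56.9% of left end and 44.7% of centre peaks at or above 3.93. It is thus no separate result on density.

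The right end can be given whole. It began with a lone peak at IV:17249792-17249981, with a score of 8.77, its highest. The region of 4 peaks from 17267729, the region of 3 from 17277694 and a peak at 17280634 followed within a short stretch, so that 9 of the 13 peaks lay between 17200001 and 17300000. The others began at 17328936, 17333654, 17426979 and 17461401. The last of them ended at 17461594, 9.28 kb before the end of the last peak of any list.

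At the borders of the zones no peak crossed from one side to the other. The last peak of the left end, IV:4477333-4477917, had its midpoint 22.4 kb before the border, and the first domain peak beyond it, IV:4505836-4506000, lay 5.92 kb after. The centre began at IV:7016428-7016707, 16.6 kb inside, with the nearest domain peak 119 kb on the other side. It ended at IV:13464451-13464690, 35.4 kb before the border, with a domain peak 3.18 kb beyond. The right end's first peak lay 49.9 kb inside its border, and the nearest domain peak 51.8 kb outside.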

How the data were processed

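Peak lists from 2 LET-418 ChIP replicates of N2 L3 larvae and 1 combined list were used. Alignment was with BWA and the build was ce10, per the submitters' processing notes. Per the file headers, positions are on WormBase WS220 and the caller is MACS. The sources used here do not give its version or threshold, the use of the input or the way the replicates were combined. The score deposited by the authors has no stated scale and only describes peaks within a list. Depth is unknown.

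Peaks were assigned to zones by midpoint in each list. Overlap meant at least 1 bp. Peaks less than 1 kb apart were joined within a zone, and distances never crossed a domain. Code was tested on simulated lists. The sites and the settings were chosen with earlier results of these data known. Within zones, sites were named by number of peaks in a region (4, 2 and 4 in the left end, right end and centre), by width (3, 1 and 3), by stretch without a peak (3, 1 and 3), as densest and sparsest windows, and as border peaks. In the centre, 4 peaks at the ceiling of the score were also named, by that score. Alternatives were other overlaps, joining distances, borders and score minimum, covered bases, and 1 replicate's list. Computations used SciPy 1.17.1, pandas 2.3.3 and NumPy 2.4.6 under Python 3.11.15, and figures matplotlib 3.10.9.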

Additional observations from a re-analysis of the deposited data

How the results depend on the processing

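The left end over centre density ratio stayed above 1 and the right end over centre ratio below 1 under the alternatives run for each. With 1 replicate's list in place of the combined list, which is how a replicate was left out, the left end ratio was 1.24 to 1.59, the right end ratio 0.679 to 0.690 and the ratio of density outside to inside the piRNA domains 1.83 to 1.85. The median width was then 221 to 247 bp, the median distance 1370.5 to 1531 bp and the share in joined regions 68.3 to 69.1%. With 1 replicate required, 91.3 to 99.1% of peaks had a partner. With a score minimum at the whole list's median, the 3 ratios were 1.80, 0.634 and 1.65, the width 270 bp, the distance 5832 bp and the share in regions 46.3%, and 97.1% had a partner in both replicates. By covered bases the right end ratio was 0.494 and the outside to inside ratio 1.70, and with borders moved by 250 kb the outside to inside ratio was 1.56. A reciprocal overlap of 50%, stricter by construction, gave 66.4% in both replicates. Joining under 500 bp gave 54.7% in regions and under 2 kb 72.7%. The right end could not be given with moved borders, since 20.9 kb of it were left. Of the alternative values for the main results, 8 moved by less than the replicate spread or the counting interval and 22 by more. Of the values for single zones, 19 moved by less than this and 29 by more. Where no construction shows the cause, the cause was not tested. No paired analysis was possible because peak lists exist for ChIP alone. Without read counts, what depth contributes to any difference between the replicates is unknown.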

Other observations

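The 100 kb on each side of the longest stretches without a combined peak held unlike numbers of peaks. For comparison, a 100 kb window held a median of 10 combined peaks in the left end and 8 in the centre. In the left end, IV:3875778-4007693 had 8 peaks before it and 31 after it, IV:2479809-2599355 had 14 and 23, and IV:393636-572581 had 6 and 6. In the right end, IV:17333847-17426978 had 11 before it and 2 after it. Its 2 flanks are not comparable, since the last peak of any list ends at 17470876, less than 100 kb beyond it. In the centre, IV:12854611-13013782 had 25 and 15, IV:10513076-10697193 had 19 and 4, and IV:13082508-13240126 had 15 and 7. The 15 after 13013782 and the 15 before 13082508 are the same peaks, since these stretches lie less than 100 kb apart. The stretch at 10513076 began 6.10 kb after the end of a region of 11 peaks, with 2 peaks between them. These flanks were looked at after the stretches were known, and no test was made.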
